A study of Mus musculus with 4 samples.

Results

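The microRNA (miRNA) described here are 9 mature miRNA that lie in introns of a pair of genes, Trpm3 and Htr2c. The rule that chose them used the host gene and no measured value, though earlier results of these data were known. The rows were taken by name: mmu-miR-204-5p and mmu-miR-204-3p, the arms of the hairpin in Trpm3, and mmu-miR-448-3p, mmu-miR-764-3p, mmu-miR-764-5p, mmu-miR-1264-3p, mmu-miR-1298-5p, mmu-miR-1298-3p and mmu-miR-1912-3p, which sit in Htr2c (the prefix mmu is left out from here on). All 9 were among the 1966 mature miRNA listed in each count table. Both hosts are known for high expression in the choroid plexus, and Htr2c also for expression in serotonin-receptive neurons. Small RNA was sequenced from primary cortical neurons of mouse embryos, with 2 libraries from wild-type (WT) neurons and 2 from APP/PS1 transgenic (TgAD) neurons. TgAD embryos (strain B6C3-Tg APPswe, PSEN1dE9 85Dbo/J) bear a mouse/human hybrid APP with the Swedish mutations and human presenilin 1 lacking exon 9, and the promoter of the transgenes, from the mouse prion gene, is active mainly in neurons of the brain and spinal cord. Cortex was of stage E16.5 in both groups, and cells were kept in serum-free medium for 5 days in vitro with no further treatment. Neurons of each embryo were cultured apart and genotyped afterwards, and the sex of the embryos is not given in the sources used here. The comparison asks whether these host-gene miRNA differed in level between TgAD and WT neurons.

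The 4 libraries held between 2070204 and 4811010 reads, and between 849 and 936 miRNA had at least 1 read. The 9 miRNA together took 0.122% and 0.117% of all WT reads and 0.169% and 0.175% of all TgAD reads. A deposited table of normalized values does not match the count tables by name. Its column named for WT library 1 held the reads of TgAD library 1 for 100% of its 674 miRNA, and its column named for TgAD library 2 matched no count table at more than 4.45% of miRNA. The groups below follow the sample labels of the count tables. The log2 fold changes of the tested host-gene miRNA are also given without TgAD library 1. Values of other miRNA are given without it only where this is stated. Replicate libraries of a genotype differed by more than counting noise. The p-values below rest on 2 cultures per genotype and speak for no more than these. Those of edgeR also borrow information on the spread from the other tested miRNA.

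A miRNA is cut from a hairpin in a longer transcript, and either arm of the hairpin, named 5p or 3p, can be loaded into the silencing complex. Bases 2 to 8 of the loaded strand, the seed, pair with target mRNA. An intronic miRNA in the sense direction is usually made from the transcript of its host, so that its level can follow the host's transcription. Trpm3 encodes a cation channel of the transient receptor potential melastatin family, and its intronic miR-204 is abundant in choroid plexus and retinal pigment epithelium. Htr2c encodes the serotonin 2C receptor, a G protein-coupled receptor of choroid plexus epithelium and of subsets of neurons. In a bulk culture, a lower level can come from fewer cells of a type or from less RNA per cell, and these cannot be told apart.

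The mature sequences of all 9 are shown because the seed and the arm define what each read counted here is. They are from RefSeq (GRCm38.p6), 5′ to 3′, with the seed in capitals, and miR-211-5p, encoded in Trpm1, is added as the paralog of miR-204-5p:
miR-204-5p: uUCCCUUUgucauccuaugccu
miR-211-5p: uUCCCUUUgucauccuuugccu
miR-204-3p: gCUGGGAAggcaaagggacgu
miR-1298-5p: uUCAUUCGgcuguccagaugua
miR-1298-3p: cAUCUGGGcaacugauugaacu
miR-448-3p: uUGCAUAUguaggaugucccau
miR-1264-3p: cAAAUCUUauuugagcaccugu
miR-764-5p: gGUGCUCAcauguccuccu
miR-764-3p: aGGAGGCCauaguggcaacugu
miR-1912-3p: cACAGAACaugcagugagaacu

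No seed was shared between any of the 9. Among all listed miRNA with a RefSeq sequence, which were 1675 of 1966 (85.2%), the seed UCCCUUU of miR-204-5p was held also by miR-211-5p and miR-7670-3p. The miR-204-5p and miR-211-5p sequences were identical at 21 of 22 bases, and the difference was A17U, counted from the 5′ end with the base of miR-204-5p given first. The seed of miR-204-3p was shared with miR-7684-5p and that of miR-764-3p with miR-7062-5p, and neither partner had a read in any library. The other 6 miRNA shared their seed with no listed miRNA for which a sequence was held. GC content ran from 36.4% in miR-1264-3p to 61.9% in miR-204-3p.

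In the GENCODE M21 annotation of GRCm38, Mir204 lies at chr19:22750605-22750672 on the plus strand, in the sense direction of Trpm3 (chr19:22139046-22995410). It fell in intron 6 or 7 of 15 of the 17 coding Trpm3 transcripts and outside the ends of the other 2. Htr2c spans chrX:146962513-147197277, also on the plus strand, and 5 of its annotated hairpins belong to the miRNA described here. From the 5′ end these are Mir764 (chrX:147002259-147002366), Mir1912 (chrX:147009441-147009527), Mir1264 (chrX:147010601-147010686), Mir1298 (chrX:147064905-147065002) and Mir448 (chrX:147158210-147158321). All 5 were intronic in each of the 4 coding Htr2c transcripts, with no exon overlap. They are far from a compact cluster: Mir1912 and Mir1264 lie 1073 bp apart, but Mir1298 follows 54218 bp later and Mir448 another 93207 bp after it. Together they span 156063 bp. No hairpin of the 9 miRNA overlapped another miRNA hairpin in RefSeq, and each mature sequence had 1 locus.

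**Figure D1:**
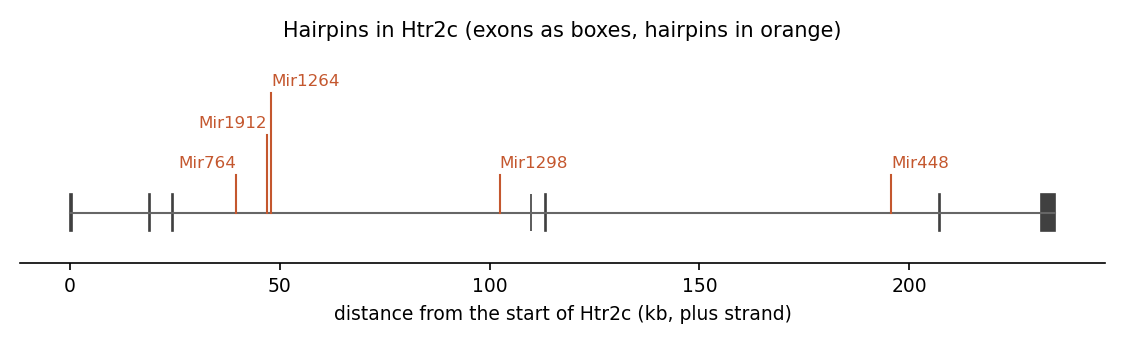
Position of the 5 hairpins in Htr2c, with distance from the gene start in kb on the horizontal axis, exons of a coding transcript as dark boxes and hairpins as orange lines. Mir764, Mir1912, Mir1264 and Mir1298 share an intron, and Mir448 lies in a later intron near the 3′ end of the gene.

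Levels ran from miR-1298-5p at the top to miR-1912-3p, which had no more than 2 reads in any library. Levels are given as CPM, reads in a library brought to a size of 1000000, with library sizes scaled by the trimmed mean of M values (TMM). miR-1298-5p was the most abundant of the 9 in every library, at 744 and 784 CPM in WT neurons and 1146 and 1580 CPM in TgAD neurons. Its rank by reads among all listed miRNA was 100 and 93 in WT and 76 and 65 in TgAD neurons. miR-204-5p came next in every library, at 213 and 242 CPM in WT neurons and 460 and 385 CPM in TgAD neurons, with ranks of 175, 167, 124 and 132. For both miRNA each TgAD library was above each WT library.

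Below these, miR-448-3p and miR-1298-3p had similar levels. miR-448-3p was at 64.3 and 42.9 CPM in WT neurons and at 37.9 and 46.3 CPM in TgAD neurons. miR-1298-3p, the less abundant arm of its hairpin, was at 40.0 and 30.9 CPM in WT and at 37.2 and 45.5 CPM in TgAD neurons. miR-448-3p was the higher in every library, narrowly so in both TgAD libraries, and over the 4 libraries these neighbours in the order did not differ beyond their spread. For each of them the genotypes overlapped. miR-1264-3p was the fifth, at 12.3 and 6.18 CPM in WT and 11.3 and 19.6 CPM in TgAD neurons, also with overlap.

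The last 4 were close to the limit of detection, taken as 3 reads, which was worth 0.746 to 1.28 CPM. Of miR-764-5p, 6 and 5 reads were found in WT against 8 and 31 in TgAD neurons. miR-204-3p had 3 and 2 reads in WT against 11 and 12 in TgAD. For both, each TgAD library was above each WT library in CPM. This held for 30.6% of all tested miRNA, which do not include them. miR-764-5p and miR-204-3p, neighbours in the order, overlapped with each other. miR-764-3p had 1, 4, 0 and 2 reads in the same order of libraries, and miR-1912-3p had 0, 0, 1 and 2. The few reads of miR-1912-3p were all from TgAD libraries. For miR-764-3p and miR-1912-3p no difference was detectable at this depth.

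**Figure D2:**
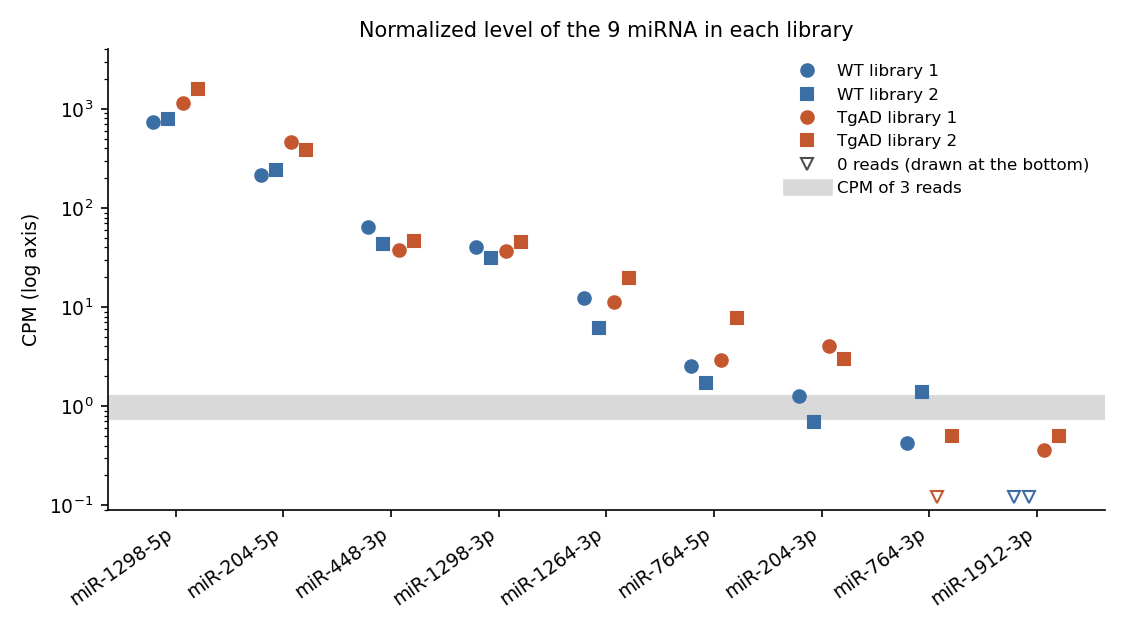
TMM-scaled CPM (log axis) of the 9 miRNA in each of the 4 libraries, ordered by mean level, with WT in blue, TgAD in orange, library 1 as circles and library 2 as squares. Open triangles mark 0 reads and the grey band the CPM of 3 reads (0.746 to 1.28); miR-1298-5p and miR-204-5p are the tested miRNA with both TgAD libraries above both WT libraries.

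In TgAD neurons, miR-204-5p and miR-1298-5p rose and no other of the 9 passed the test in either direction. The test was the quasi-likelihood test of edgeR, adjusted after Benjamini and Hochberg over all 496 tested miRNA, and a call needed an adjusted p below 0.1 together with a change of more than 0.6 in either direction on the log2 scale. Of the 9 miRNA, 5 had enough reads to be tested, 2 were called higher, 0 lower and 3 were not called. Over all tested miRNA 15.7% were called higher and 17.3% lower, 33.1% in all. Both TgAD libraries were above both WT libraries for 2 of the 5 and below them for 0, against 30.6% and 32.5% of all tested miRNA, or 63.1% in either direction. The median log2 fold change was 0.78 for the 5 tested and 0.032 for all tested, and 4 of the 5 were above 0 against 52.4% of all tested miRNA. The 4 untested miRNA are in none of these counts.

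**Figure D3:**
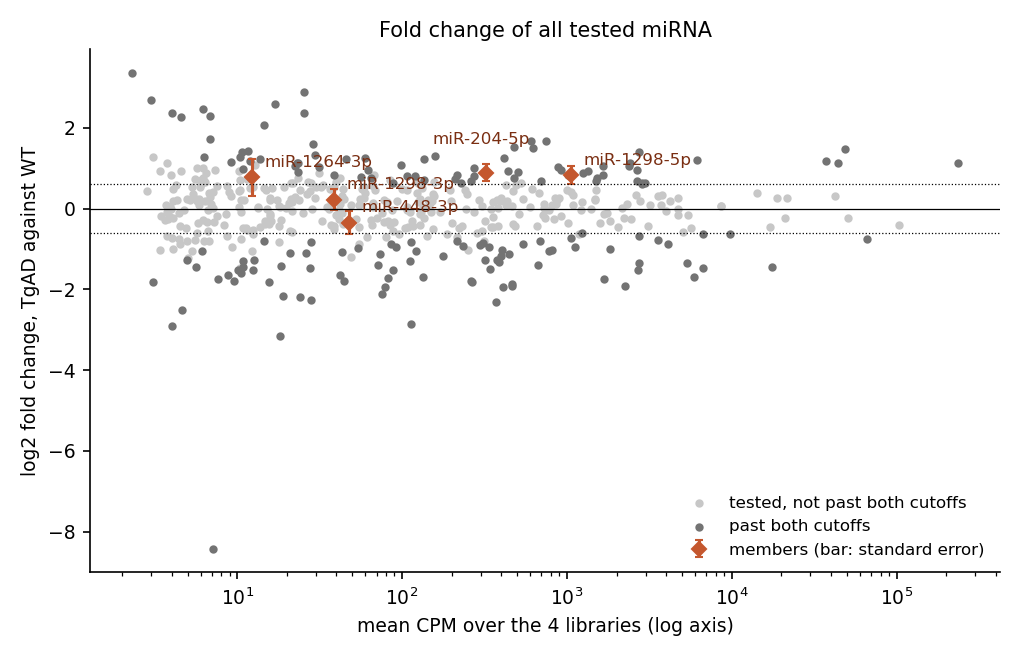
Log2 fold change of TgAD against WT (vertical axis) against mean CPM over the 4 libraries (horizontal log axis) for all 496 tested miRNA, dark where past both cutoffs, with the 5 tested miRNA of Trpm3 and Htr2c in orange and bars of 1 standard error. miR-204-5p (0.89) and miR-1298-5p (0.83) sit above the dotted cutoff of 0.6, and the bars of miR-1264-3p, miR-1298-3p and miR-448-3p are wider.

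For miR-204-5p the mean of the WT libraries was 227 ± 20.5 CPM and that of the TgAD libraries 422 ± 52.8 CPM (SD, n = 2 each). This is a log2 fold change of 0.89 (standard error, SE, 0.204; adjusted p = 0.0276 by edgeR), a fold of 1.86 with a range of 1.61 to 2.14 at 1 SE. Of all tested miRNA 87.1% had a lower log2 fold change. Without TgAD library 1 the log2 fold change was 0.66 (SE 0.203, adjusted p = 0.0949 by edgeR), and without TgAD library 2 it was 1.04 (adjusted p = 0.0194). Without WT library 1 it was 0.82 and the call was lost (adjusted p = 0.130), and so it was with total counts as library size, at 0.65 (SE 0.292, adjusted p = 0.104). That scaling moved the median of all tested miRNA by -0.26 on the log2 scale and turned the split of calls from 78 higher and 86 lower to 43 higher and 122 lower. The most abundant miRNA, miR-99a-5p, took 15.8% and 16.7% of WT reads and 27.0% and 31.8% of TgAD reads, and its part in that shift was not tested. With reads taken from the normalized table by its own column names, miR-204-5p was not called (0.20, SE 0.481, adjusted p = 0.934 by edgeR).

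miR-1298-5p rose too, from a WT mean of 764 ± 28.6 CPM to a TgAD mean of 1363 ± 307 CPM (SD, n = 2 each), by 0.83 on the log2 scale (SE 0.221, adjusted p = 0.0385 by edgeR), a fold of 1.78 with a range of 1.53 to 2.08 at 1 SE. The TgAD libraries lay further apart for this miRNA than for miR-204-5p, and in the opposite order: miR-1298-5p was highest in TgAD library 2 and miR-204-5p in TgAD library 1. Leaving out TgAD library 1 gave 0.95 (adjusted p = 0.0320 by edgeR) and leaving out TgAD library 2 gave 0.61 (adjusted p = 0.0794). The call was lost without WT library 1, at 0.81 (adjusted p = 0.101), with total counts, at 0.56 (adjusted p = 0.134), and with the columns of the normalized table, at 0.49 (adjusted p = 0.738).

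miR-448-3p, from the hairpin nearest the 3′ end of Htr2c, was not called, with a WT mean of 53.6 ± 15.1 and a TgAD mean of 42.1 ± 5.90 CPM and a log2 fold change of -0.34 (SE 0.293, adjusted p = 0.432 by edgeR). It was -0.30 without TgAD library 1 and ran from -0.62 without WT library 2 to -0.012 without WT library 1. miR-1298-3p had means of 35.5 ± 6.43 and 41.3 ± 5.89 CPM and a log2 fold change of 0.23 (SE 0.271, adjusted p = 0.572). Without TgAD library 1 it was 0.27. Its sign turned with total counts, to -0.053, and with the columns of the normalized table, to -0.15. miR-1264-3p had means of 9.26 ± 4.36 and 15.5 ± 5.90 CPM and a log2 fold change of 0.78 (SE 0.461, adjusted p = 0.284). It was 1.01 without TgAD library 1 and ran from 0.33 without WT library 2 to 1.35 without WT library 1, and it was called in none of these fits. Once each library was corrected for GC content, miR-1264-3p passed the cutoffs at 1.35 (SE 0.453, adjusted p = 0.0670), and it has the lowest GC content of the 9.

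**Figure D4:**
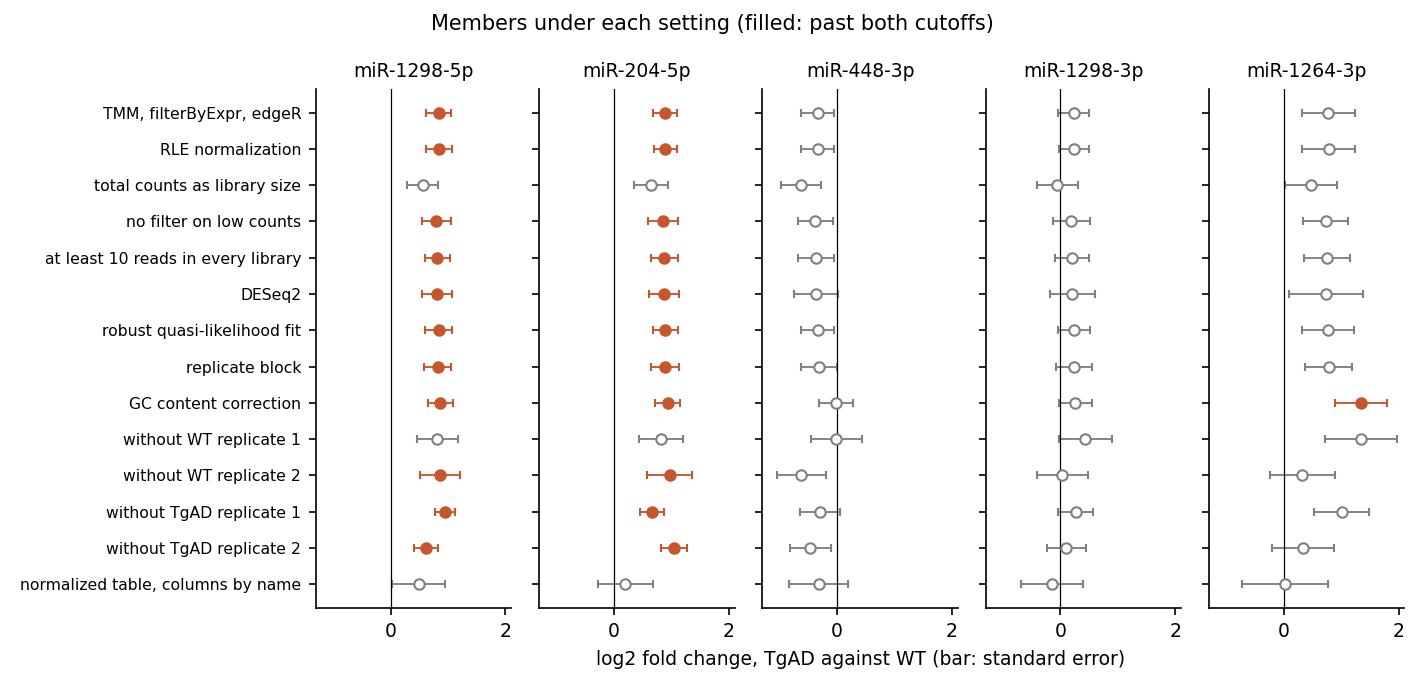
Log2 fold change of TgAD against WT (horizontal axis, bars of 1 standard error) for the 5 tested miRNA under the settings named at the left, filled where past both cutoffs. miR-1298-5p and miR-204-5p are filled except with total counts, without WT library 1 and with the normalized table, and miR-1264-3p is filled only with the GC correction.

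A pair of the rarest miRNA could be compared only by their summed reads. miR-764-5p had 39 reads in TgAD and 11 in WT neurons, a depth-adjusted ratio of 2.76 with a 95% counting interval of 1.38 to 5.97, and 31 of the 39 came from TgAD library 2. miR-204-3p had 23 reads against 5, a ratio of 3.58 with an interval of 1.33 to 12.0. Without TgAD library 1 the ratios were 3.69 (1.80 to 8.13) for miR-764-5p and 3.14 (1.03 to 11.4) for miR-204-3p. Without TgAD library 2 that of miR-764-5p was 1.39 (0.487 to 3.81), and without WT library 2 the intervals of both reached below 1. These intervals, like all below, cover counting error only and leave out the spread between cultures. No molecular identifiers are named in the sources used here, so reads could not be reduced to molecules. In the edgeR fit with no filter on low counts the log2 fold changes were 1.32 (adjusted p = 0.168) for miR-764-5p and 1.77 (adjusted p = 0.172) for miR-204-3p, and neither was called.

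The share of the 5p arm within a hairpin needs no scaling between libraries. In miR-204, reads were almost all of the 5p arm, at 99.4% and 99.7% in WT and 99.1% and 99.2% in TgAD neurons. For miR-1298 the 5p arm took 94.9% (95% exact binomial interval 93.8 to 95.9%) and 96.2% (95.4 to 96.9%) in WT and 96.9% (96.2 to 97.4%) and 97.2% (96.8 to 97.6%) in TgAD neurons. The TgAD libraries were higher by 1.48 percentage points on average, but the intervals of WT library 2 and TgAD library 1 overlapped. Without WT library 1 the difference was 0.82 points, and without TgAD library 1 it was 1.65 points. With 2 libraries against 2, an exact two-sided permutation test cannot give a p below 0.333, and it gave 0.333 here.

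Arm use differed between hairpins of the same host. miR-448 was read almost wholly from the 3p arm, with 6 and 1 reads of miR-448-5p in WT, 0 in both TgAD libraries, and 5p shares of 3.82%, 0.794%, 0% and 0%. In miR-1264 the 3p arm led less clearly, and the 5p share was 35.6% and 33.3% in WT and 20.5% and 24.0% in TgAD neurons, from 27 to 104 reads with overlapping intervals. The mean difference was -12.2 points, and -10.4 points without TgAD library 1. miR-1264-5p itself had 16, 9, 8 and 25 reads and a log2 fold change of -0.035 (SE 0.585, adjusted p = 0.976 by edgeR), which was 0.26 without TgAD library 1. In miR-764 the 5p share was 85.7% and 55.6% in WT and 100% and 93.9% in TgAD neurons, higher in both TgAD libraries. It came from only 7, 9, 8 and 33 reads, and the intervals of the libraries overlapped. The mean difference was 26.3 points, and 23.3 points without TgAD library 1. miR-1912-5p had 1 read in WT library 1 and 0 elsewhere, and both arms of miR-1911, a further Htr2c hairpin, had 0 reads in all 4 libraries.

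The makeup of the Htr2c-hosted reads was also compared within each library. The 7 listed miRNA of Htr2c summed to 2029 and 2526 WT reads against 3391 and 6836 TgAD reads. miR-1298-5p took 86.2% (84.6 to 87.6%) and 90.4% (89.2 to 91.5%) of them in WT and 92.7% (91.8 to 93.6%) and 92.9% (92.3 to 93.5%) in TgAD neurons. In each library it thus held most of what was read from the gene, and its share was 4.55 percentage points higher in TgAD neurons on average. The size of this difference depended on the WT libraries: it was 2.42 points without WT library 1 and 6.69 points without WT library 2, against 4.65 points without TgAD library 1.

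miR-448-3p took 7.44% (6.34 to 8.67%) and 4.95% (4.14 to 5.87%) of the Htr2c-hosted reads in WT and 3.07% (2.51 to 3.70%) and 2.72% (2.35 to 3.13%) in TgAD neurons. Its intervals in the TgAD libraries lay below those in the WT libraries. Most of these reads are miR-1298-5p, which was called higher, and a rise of it lowers the shares of the others. The values in this paragraph are thus not separate from that rise. In CPM the genotypes overlapped for miR-448-3p (log2 fold change -0.34, not called). For every 100 reads of miR-1298-5p there were 8.64 and 5.47 reads of miR-448-3p in WT and 3.31 and 2.93 in TgAD neurons. The mean share was lower by 3.30 points in TgAD neurons, against SDs of 1.76 points in WT and 0.245 points in TgAD (n = 2 each), and without TgAD library 1 the difference was -3.47 points. Without WT library 1 it shrank to -2.05 points, and without WT library 2 it was -4.55 points. The exact permutation p was 0.333, the smallest these libraries allow. miR-1298-3p had shares of 4.63%, 3.56%, 3.01% and 2.68% in the same order. miR-1264-3p had 1.43%, 0.713%, 0.914% and 1.16%, with the genotypes overlapping.

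miR-204-5p and the Htr2c-hosted miRNA were set against each other as a ratio of reads within each library. There were 0.246 (0.223 to 0.272) and 0.279 (0.256 to 0.303) reads of miR-204-5p for each Htr2c-hosted read in WT, and 0.372 (0.348 to 0.397) and 0.226 (0.214 to 0.239) in TgAD neurons. TgAD library 1 was the highest and TgAD library 2 the lowest of the 4, so the genotypes overlapped. The means were 0.263 ± 0.0228 and 0.299 ± 0.103 (SD, n = 2 each; exact two-sided permutation p = 1.0), and the difference turned from 0.0366 to -0.0361 when TgAD library 1 was left out. It was 0.0205 without WT library 1 and 0.109 without TgAD library 2.

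**Figure D5:**
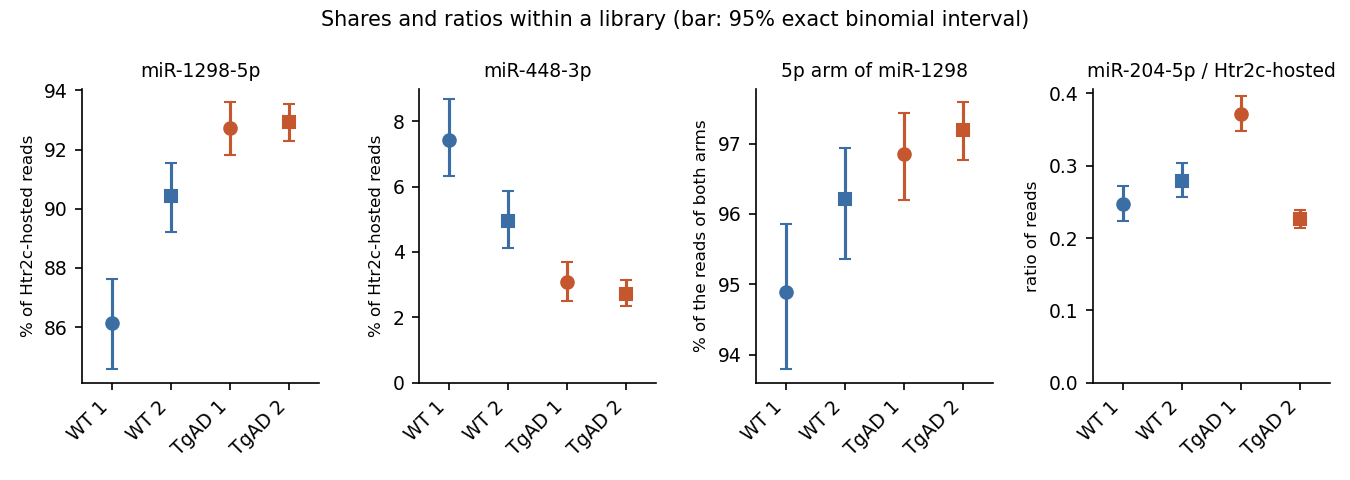
Shares of miR-1298-5p and of miR-448-3p in the Htr2c-hosted reads (%), share of the 5p arm of miR-1298 (%), and ratio of miR-204-5p reads to Htr2c-hosted reads, 1 point per library with 95% exact binomial intervals as bars (the panels of miR-1298 do not start at 0). The miR-448-3p share is lower in both TgAD libraries (3.07% and 2.72%) than in both WT libraries (7.44% and 4.95%), while the ratio overlaps between genotypes.

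The paralog added few reads to the miR-204 seed family in these cultures. miR-211-5p had 4, 4, 5 and 4 reads, miR-211-3p had 0, 1, 0 and 0, and miR-7670-3p had none. Of the reads with the seed UCCCUUU, 99.2% and 99.4% were miR-204-5p in WT neurons and 99.6% and 99.7% in TgAD neurons.

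The tested miRNA whose pattern over the 4 libraries was most like that of miR-204-5p were miR-3102-3p, miR-6988-3p and miR-760-3p. Likeness was the root mean square difference of log2 CPM, each centred on its own mean, and was 0.0960, 0.106 and 0.108, against a median of 0.524 over all tested miRNA. For miR-1298-5p they were miR-543-3p (0.0410), miR-6911-3p (0.0411) and miR-383-5p (0.0642), against a median of 0.527. miR-204-5p and miR-1298-5p differed from each other by 0.259. These are descriptions over 4 libraries that share depth and composition, with no test.

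Other intronic miRNA were described in the same fit. Of 5 listed miRNA from further receptor or channel hosts, 3 were tested and none was called: miR-346-5p had a log2 fold change of -0.45, miR-452-5p of 0.17 and miR-224-5p of 0.53. Of 10 miRNA from introns of other genes active in brain, 9 were tested, with 3 higher and 2 lower and a median of 0.021. The most abundant of these 10, miR-128-3p, rose by 1.49, miR-149-5p by 1.40 and miR-139-5p by 0.69 on the log2 scale, while miR-488-3p fell by 0.63 and miR-33-5p had a log2 fold change of -1.09. Without TgAD library 1, miR-149-5p (1.26) was still called higher. miR-128-3p (1.12), miR-139-5p (0.61) and miR-488-3p (-0.72) were not called by edgeR. In that fit miR-33-5p was at -1.57, and miR-153-3p moved from -0.38 to -0.81.

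Markers of the cells that a cortical culture can hold were counted beside the host-gene miRNA. Among 9 neuronal miRNA, 6 were tested, 2 higher (miR-128-3p and miR-132-3p, at 1.49 and 0.95) and 1 lower (miR-137-3p, at -1.53), and their summed level was 26141 and 39977 CPM in WT and 90001 and 64615 CPM in TgAD neurons. The sum followed miR-128-3p: without it the level was 7836 and 6937 CPM in WT and 5943 and 4893 CPM in TgAD neurons, lower and not higher. Without TgAD library 1 the calls of miR-128-3p (1.12) and miR-132-3p (0.52) were lost. In that fit miR-137-3p was at -1.90. miR-138-5p moved from -0.63 to -1.24 and miR-212-3p from 0.70 to -0.26, while miR-218-5p moved from 0.35 to 0.66. The defining neuronal marker miR-124-3p had only 1, 2, 7 and 4 reads, and miR-9-5p and miR-9-3p were at 0. The other arm, miR-124-5p, which is not in the list, had 4, 6, 24 and 50 reads and was called higher in TgAD neurons. No RefSeq locus was held for miR-124-3p, so overlap of its hairpin with others could not be checked. The reads of miR-124-3p alone thus do not show that these neurons lacked miR-124. Among 9 miRNA of multiciliated cells, such as ependyma, 5 were tested, 0 higher and 2 lower. The study also cites expression of miR-449a in adult choroid plexus, the tissue in which both hosts are known to be high. miR-449a thus does not mark ependyma alone. miR-34c-5p had a log2 fold change of -1.49 (adjusted p = 0.0106 by edgeR) and miR-449a-5p of -1.13 (adjusted p = 0.0267). The study followed miR-449a in detail, partly for its fall in these samples. It also cited predicted cell cycle targets and reports on cerebrospinal fluid of patients, and reported the fall in TgAD neurons by quantitative RT-PCR. The summed level of the 9 was 601 and 664 CPM in WT and 307 and 213 CPM in TgAD neurons, and miR-449b was at 0. With all 4 libraries the called pair carried this fall. The other 3 tested had log2 fold changes above 0 that did not pass the test (0.22, 0.74 and 0.11 for miR-34b-3p, miR-34c-3p and miR-449c-5p). The median of the list was 0.11. Without the called pair the sum was 27.2 and 31.9 CPM in WT against 48.8 CPM in TgAD library 1. In TgAD library 2 it was less than in either WT library. The positive values of the other 3 depended on TgAD library 1. Without it miR-34b-3p was at -0.24, miR-34c-3p at -0.30 and miR-449c-5p at -1.96. In that fit miR-34c-5p was at -1.87 and miR-449a-5p at -1.28. The number of the list called lower changed with the library left out, and miR-449a-5p was not called without WT library 1 (-0.92). Of 6 epithelial miRNA 3 were tested and 1 was lower, miR-200c-3p, which fell by 1.75 (adjusted p = 0.0276) and was not called without TgAD library 2. Their summed level was 26.0 and 23.0 CPM in WT and 13.8 and 11.7 CPM in TgAD neurons.

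Of 8 endothelial, blood and myeloid miRNA, 2 were tested and 1 was lower, miR-451a, which fell by 0.72 (adjusted p = 0.0707 by edgeR), with summed levels of 1321 and 1342 CPM in WT and 971 and 662 CPM in TgAD neurons. Without miR-451a the sum was 11.5 and 12.0 CPM in WT and 14.6 and 16.7 CPM in TgAD neurons, and miR-451a was called without TgAD library 1 but not when any of the other 3 libraries was left out. miR-126a-3p, miR-126a-5p and miR-142a-3p of that list were at 0. Of 5 glial miRNA 2 were tested and none was called, with miR-219a-5p, miR-219a-2-3p and miR-338-3p at 0. Their sums were 18038 and 23299 CPM in WT and 15940 and 14766 CPM in TgAD neurons, mostly from miR-21a-5p. Without miR-21a-5p the sums were 901 and 718 CPM in WT and 820 and 1045 CPM in TgAD neurons, with the genotypes overlapping. Of 6 mesenchymal miRNA 2 were tested and none was called, with sums between 718 and 904 CPM and miR-199a-3p at 0. The part of these cell types in the levels of the 9 miRNA was not tested.

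An absent marker has to be read with its locus. Of the 10 miRNA in these lists at 0 reads in all libraries that have a RefSeq locus, 6 overlap another miRNA hairpin at a locus, among them miR-126a-3p, miR-142a-3p, miR-338-3p, miR-219a-5p and both arms of miR-9. Of the 49 with reads, 2 do, and of the 9 miRNA described here, 0 do. The 2 with reads are miR-451a and miR-142a-5p, the 2 tested miRNA of the endothelial, blood and myeloid list. How reads at overlapping hairpins were counted is not given in the sources used here.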

How the data were processed

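The authors deposited whole-number counts of reads per mature miRNA for each library, from adapter-trimmed reads mapped to GRCm38 by Bowtie2 with no mismatch allowed and counted by HTSeq on miRBase (tool versions are not given in the sources used here). A further deposited table holds a normalized signal, the counts after division by library size factors. Every value in its 4 columns (100%) came out as a whole number of reads (tolerance 0.01), so reads were recovered. Its columns disagree by name with the count tables, and it was used only in 1 alternative, added after the data were seen, which called 0 of 480 tested miRNA.

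Depth was the sum of counts per library. Counts were fitted with edgeR 4.0.16 (limma 3.58.1, R 4.3.3): TMM, filterByExpr, quasi-likelihood test, genotype only, Benjamini-Hochberg adjustment over the 496 tested miRNA. The study's cutoffs were used, and its DESeq2 (1.42.0) was an alternative. Other alternatives were RLE, total counts, no filter, at least 10 reads in every library, the robust fit, the replicate block, a GC correction (loess, span 0.75) and leaving out each library. The scripts were tested on simulated data. Shares carry exact binomial intervals (95%), and single values were compared by exact permutation. Log2 CPM used a prior count of 2. A floor of 3 reads was used. The members and lists were chosen with earlier results of these data known. Named miRNA were the 9, the other arms of their hairpins, miRNA with the same seed, the 3 nearest patterns, and of each list up to 3 by highest mean CPM. miR-99a-5p, miR-139-5p, miR-33-5p, miR-153-3p, miR-34c-3p, miR-449c-5p, miR-124-3p, miR-124-5p, miR-138-5p, miR-212-3p, miR-218-5p and the markers at 0 reads were named after their values were seen.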

Additional observations from a re-analysis of the deposited data

Results flagged for a closer look

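The column of the normalized table named for TgAD library 2 matches none of the count tables, and it enters no comparison of the count tables. It stood for TgAD library 2 only in the fit of that table by its own column names, in which none of the miRNA was called. In it, 3 of the host-gene miRNA lay above both WT count tables on CPM over the listed miRNA. miR-204-5p was at 265 CPM (511 reads) against 242 and 256 CPM in the WT libraries, miR-204-3p at 3.63 CPM (7 reads) against 1.45 and 0.727, and miR-764-5p at 5.19 CPM (10 reads) against 2.90 and 1.82. miR-1298-5p was at 735 CPM there, below the 844 and 830 CPM of the WT libraries. miR-448-3p (24.4 CPM), miR-1298-3p (16.1 CPM) and miR-1264-3p (2.08 CPM) were below both WT libraries too. These differences from the WT count tables were not tested.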

How the results depend on the processing

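miR-204-5p and miR-1298-5p were called in 10 of 12 alternatives on the count tables each, and positive in all 12. They were not called with total counts as library size (0.65, adjusted p = 0.104, and 0.56, adjusted p = 0.134 by edgeR) and without WT library 1 (0.82 and 0.81). That scaling gave 43 calls higher and turned miR-1298-3p to -0.053. Leaving out 1 library gave 0.66 to 1.04 for miR-204-5p, 0.61 to 0.95 for miR-1298-5p, 118 to 143 calls, 47 to 61 higher and 67 to 89 lower. In such fits the lone library is assumed to vary like the others. The GC correction took miR-1264-3p to 1.35 (called). GC content was known for 88.9% of tested miRNA, with a Spearman correlation with the log2 fold change of 0.42 across miRNA, which are not independent. The replicate block gave 188 calls, with 0.89 (adjusted p = 0.00114 by edgeR) for miR-204-5p and 0.82 (adjusted p = 0.00232) for miR-1298-5p, and changed no call of the 5 tested; same-numbered deviations correlated at 0.216 over 2 pairs, which establishes no pairing. Reads recovered from the normalized table, with columns by name, gave 0 calls by edgeR, 0 higher and 0 lower (54 at an unadjusted p under 0.05), against 143 by DESeq2 and 164 by edgeR on the count tables. There miR-204-5p was 0.20, miR-1298-5p 0.49 and miR-1298-3p -0.15; the cause was not tested. Of all alternative values, 139 kept their direction and side of the threshold, moved less than the spread or, for counts of calls, stayed near the main count. Another 9 moved further, 6 lost a call, 1 gained a call and 2 reversed. The 139 include shares and ratios that changed sign within the spread. An example is the ratio of miR-204-5p to Htr2c-hosted reads without TgAD library 1, a difference of -0.0361 against 0.0366. At this depth miRNA under about 10 reads per library carry wide counting intervals.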
